A study of Saccharomyces cerevisiae with 3 samples.

Results

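General stress genes and the genes of glycogen and trehalose metabolism of the budding yeast Saccharomyces cerevisiae were followed on 3 expression arrays. The 36 genes were listed by name and matched by locus tag, and all 36 were found among the 5777 genes measured. By role, 20 are storage carbohydrate genes, 14 are other targets of the transcription factors Msn2 and Msn4, and 2 are the genes of these factors, MSN2 and MSN4. Each array held pooled RNA of 3 cultures of strain DS10, labelled with Cy3. The cultures were fresh transformants carrying pRS415, grown to log phase in medium lacking leucine, and RNA was prepared with hot phenol. The insert was the Ssz1 mutant S295F on one array and a piece of Zuo1 on another, its residues 365 to 433 carrying S427G (the Zuo1 fragment, or the fragment). For the last array the labels name only the vector, with no insert. It is read here as the plasmid with TAP as its insert, the remaining one of the 3 plasmids listed in the treatment protocol. Each stood behind the GPD promoter, a strong promoter of a glycolytic gene. The sample titles call all 3 samples WT, and the sources used here give no further chromosomal genotype of DS10. Ssz1 and Zuo1 form the ribosome-associated complex, a chaperone pair that binds near the exit of the ribosome. The series compares cells that overexpress the Ssz1 mutant or the Zuo1 fragment with cells carrying the vector.

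Msn2 and Msn4 are related zinc-finger proteins that enter the nucleus under heat, oxidative, osmotic or nutrient stress and activate a broad set of genes through stress response elements in their promoters. Protein kinase A, which is active in cells growing on plentiful glucose, holds them in the cytoplasm. Trehalose and glycogen are the reserve carbohydrates of yeast. Both are made from glucose phosphates and UDP-glucose, accumulate as growth slows, and are broken down by their own enzymes, and several genes of these pathways are also targets of Msn2 and Msn4.

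Each value below is an intensity after RMA (robust multi-array average), on a linear scale, and is the geometric mean over the 3 blocks of an array. A difference between arrays is given as a log2 ratio. The error after a ratio is its SD over the 3 blocks. It measures technical spread within a pair of arrays and says nothing of the spread between cultures. For a difference between paralogues, the error is the root of the summed squares of their SDs, which ignores that their blocks are shared. With 1 array per group no test could be made, no p-value is given, and the words higher and lower describe these arrays only. Past 2-fold means a log2 ratio of at least 1 in size and is a rule of size. The comparisons with vector share the vector array, so their values stand side by side and are not independent. Intensities of different genes are not set against each other, because probes differ in brightness. In pooled RNA of a culture, a change in the share of cells that express a gene and a change of its level per cell cannot be told apart.

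Median intensities were 2701 to 2806 on the 3 arrays, and the lowest correlation between blocks of 1 array was 0.998. SSZ1 read 10279 with vector, 19318 with Ssz1 S295F and 12001 on the fragment array. ZUO1 read 13337, 13744 and 12935, and which part of the gene its probes cover was not analysed here, so this reading does not check the fragment. The median log2 ratio of all genes was -0.15 for Ssz1 S295F over vector, -0.12 for the Zuo1 fragment over vector and 0.03 for the Zuo1 fragment over Ssz1 S295F. Ratios also went with coding length (the summed length of the coding parts of a gene). The Spearman correlation across the 5777 genes was 0.552, 0.516 and -0.413 in the same order, where genes are not independent replicates. A ratio relative to genes of like length was therefore added, as the difference from a loess over all genes, and is called the length-adjusted ratio.

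With Ssz1 S295F, the 36 genes did not move as a block. Glycogen phosphorylase (GPH1) and the small stress genes DDR2, GRE1 and SIP18 were lower than with vector past 2-fold, and none of the 36 was higher past 2-fold. The genes of trehalose synthesis, MSN2 and MSN4 lay above vector by less than 2-fold. Lower past 2-fold were 4 of 36 members (11.1%), against 2.77% of all genes, and higher past 2-fold were 0 of 36, against 5.02% of all genes. SIP18 read below the 5th percentile on every array and GRE1 on the Ssz1 S295F array. Without genes that had such a low reading, 2 of 34 members (5.88%) were lower, against 1.70% of all genes. The median log2 ratio was 0.02 over the 36 members and -0.15 over all genes. Relative to that median of all genes, MSN4 and the glycogen branching enzyme gene GLC3 passed 2-fold on the higher side, at 1.08 and 1.01.

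With the fragment, GPH1 alone of the 36 genes was lower past 2-fold (2.78% of members, against 0.866% of all genes). None of the 36 genes was higher past 2-fold, against 3.64% of all genes. The GPH1 ratio of -1.04 was -0.92 relative to the median of all genes, so its call ended with centring. The median log2 ratio was -0.05 over the members and -0.12 over all genes. GRE1 came closest to the threshold without passing it, at -0.95 ± 0.03, and MSN4 had the highest ratio, at 0.72 ± 0.13.

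**Figure D1:**
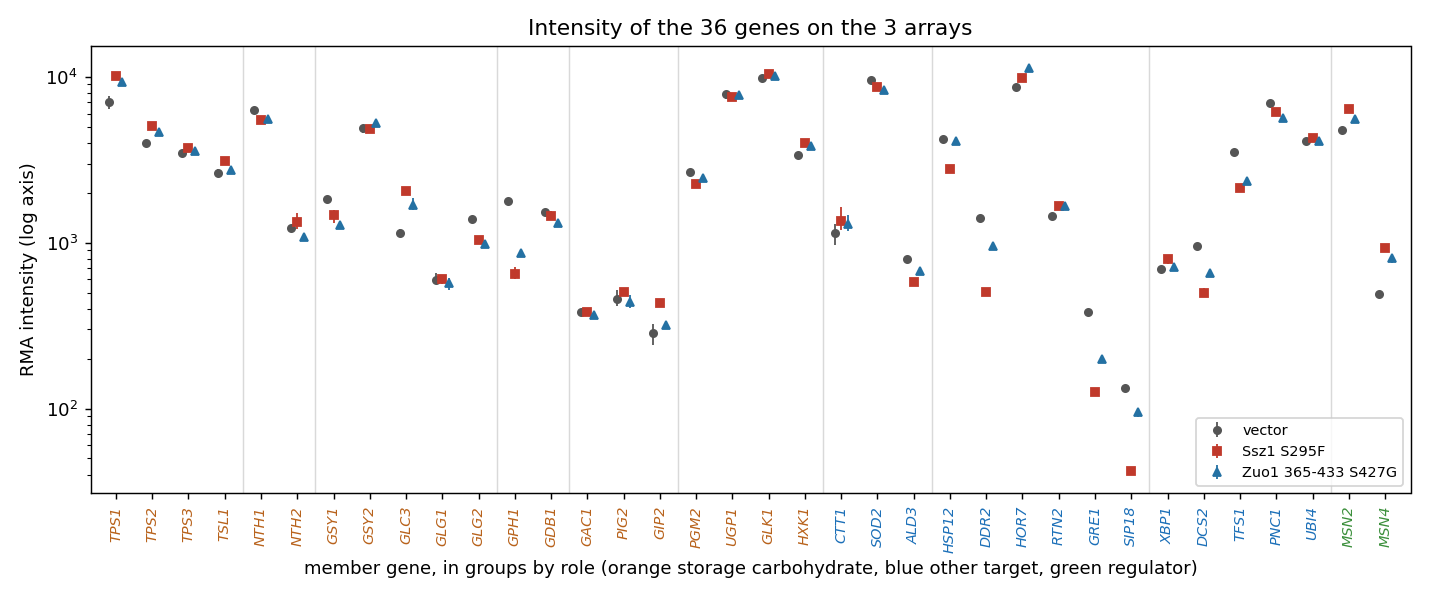
RMA intensity (log axis) of each of the 36 genes on the vector array (grey circles), the Ssz1 S295F array (red squares) and the Zuo1 fragment array (blue triangles), with bars from the lowest to the highest block. Most genes lie close together on the 3 arrays, while the vector reading of GPH1, DDR2, GRE1 and SIP18 stands well above the Ssz1 S295F reading.

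Trehalose is made by a complex of TPS1, the trehalose-6-phosphate synthase, TPS2, the phosphatase that removes the phosphate, and the regulatory subunits TPS3 and TSL1. TPS1 (YBR126C, chromosome II, 488899 to 490386 in the array's gene models of 2008) read 7041 with vector, 10161 with Ssz1 S295F and 9340 on the fragment array. Its log2 ratios to vector were 0.53 ± 0.13 and 0.41 ± 0.18, so both construct arrays read above vector, with a wide spread between blocks. TPS2 read 3970, 5076 and 4674 in the same order of arrays, with ratios of 0.35 ± 0.05 and 0.24 ± 0.05. TPS3 read 3468, 3712 and 3577, and its ratios of 0.10 ± 0.12 and 0.04 ± 0.12 were within the block spread. TSL1 read 2636, 3115 and 2731, with ratios of 0.24 ± 0.06 and 0.05 ± 0.00. All 4 genes were above 0 in both comparisons, with medians of 0.30 and 0.14, and 0 of 4 passed 2-fold. Length-adjusted ratios of the 4 genes lay between 0.04 and 0.51 with Ssz1 S295F, and between 0.03 and 0.40 with the fragment.

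Neutral trehalase, which splits trehalose into glucose, is encoded by NTH1, and NTH2 is its paralogue. NTH1 read 6267 with vector, 5492 with Ssz1 S295F and 5527 on the fragment array. Its ratios of -0.19 ± 0.05 and -0.18 ± 0.04 were close to the median of all genes. Relative to genes of like length NTH1 was lower, with length-adjusted ratios of -0.28 and -0.23. NTH2 read 1222, 1341 and 1080, at 0.13 ± 0.12 and -0.18 ± 0.04. Neither gene of trehalose breakdown passed 2-fold.

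Glycogen is started by the glycogenins GLG1 and GLG2, lengthened by the synthases GSY1 and GSY2 and branched by GLC3. GLC3 (YEL011W, chromosome V, 133120 to 135234) read 1136 with vector, 2061 with Ssz1 S295F and 1685 on the fragment array. Its ratios of 0.86 ± 0.02 and 0.57 ± 0.08 were the highest among the 20 storage carbohydrate genes in both comparisons and stayed under 2-fold. GSY1 read 1823, 1465 and 1279, at -0.32 ± 0.12 and -0.51 ± 0.05. GSY2 read 4915, 4877 and 5247, at -0.01 ± 0.08 and 0.09 ± 0.05. The synthase genes have nearly the same coding length (2127 and 2118 bp), and the ratio of GSY1 less that of GSY2 was -0.61 ± 0.07 with the fragment and -0.30 ± 0.15 with Ssz1 S295F. GLG1 read 599, 607 and 569, at 0.02 ± 0.09 and -0.07 ± 0.08. GLG2 read 1398, 1042 and 981.2, at -0.42 ± 0.01 and -0.51 ± 0.04. One isoform of each pair thus lay below vector on both construct arrays, while the other stayed within 0.1 of it. Unlike the synthase genes, GLG1 and GLG2 differ in coding length (1851 and 1143 bp). Their length-adjusted ratios lay closer together, at -0.08 and -0.13 for GLG1 and at -0.25 and -0.35 for GLG2.

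Glycogen breakdown gave the one storage carbohydrate gene past 2-fold. GPH1 (YPR160W, chromosome XVI, 861302 to 864010) encodes glycogen phosphorylase, which releases glucose 1-phosphate from glycogen. It read 1785 with vector, 645.5 with Ssz1 S295F and 866.9 on the fragment array. The blocks lay between 1784 and 1788 with vector, between 604.6 and 717.3 with Ssz1 S295F, and between 837.8 and 919.0 with the fragment, so blocks of the 3 arrays did not overlap. The ratio to vector was -1.47 ± 0.13 with Ssz1 S295F, past 2-fold in 3 of 3 blocks, and -1.04 ± 0.07 with the fragment, past 2-fold in 2 of 3 blocks. GPH1 is long (2709 bp), and genes of its length had ratios near 0. Its length-adjusted ratios were -1.54 and -1.08, and of all genes 12 had a lower length-adjusted ratio with Ssz1 S295F and 13 with the fragment. GDB1, the debranching enzyme that works with phosphorylase, read 1537, 1452 and 1322, at -0.08 ± 0.13 and -0.22 ± 0.02. GPH1 and GDB1 thus differed from each other by more than the block spread.

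Glycogen synthase is activated when the phosphatase Glc7 is brought to it by targeting subunits, of which GAC1 is the best described and PIG2 and GIP2 are relatives of each other. GAC1 read 379.5 with vector, 383.5 with Ssz1 S295F and 367.1 on the fragment array, at 0.02 ± 0.04 and -0.05 ± 0.04. PIG2 read 458.3, 507.5 and 440.1, at 0.15 ± 0.15 and -0.06 ± 0.03. GIP2 read 285.9, 435.0 and 318.6, at 0.61 ± 0.22 and 0.16 ± 0.23. All were dim, between the 6th and the 9th percentile of the vector array, and the block SDs of GIP2 were the widest of the 36 genes in the comparisons with vector.

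Genes that supply the precursors differed little between arrays. PGM2, the main phosphoglucomutase, read 2662 with vector, 2245 with Ssz1 S295F and 2457 on the fragment array, at -0.25 ± 0.04 and -0.12 ± 0.05. UGP1, which makes UDP-glucose, read 7838, 7586 and 7775, at -0.05 ± 0.10 and -0.01 ± 0.08. GLK1, glucokinase, read 9788, 10347 and 10137, at 0.08 ± 0.01 and 0.05 ± 0.01. HXK1, a hexokinase made when glucose is scarce, read 3395, 4006 and 3806, at 0.24 ± 0.04 and 0.16 ± 0.01. None of the 4 genes moved by more than 0.25 from vector. The coding span of GLK1 overlaps that of YCL042W, which lay at 0.82 and 0.64, and signals of overlapping genes were not separated.

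**Figure D2:**
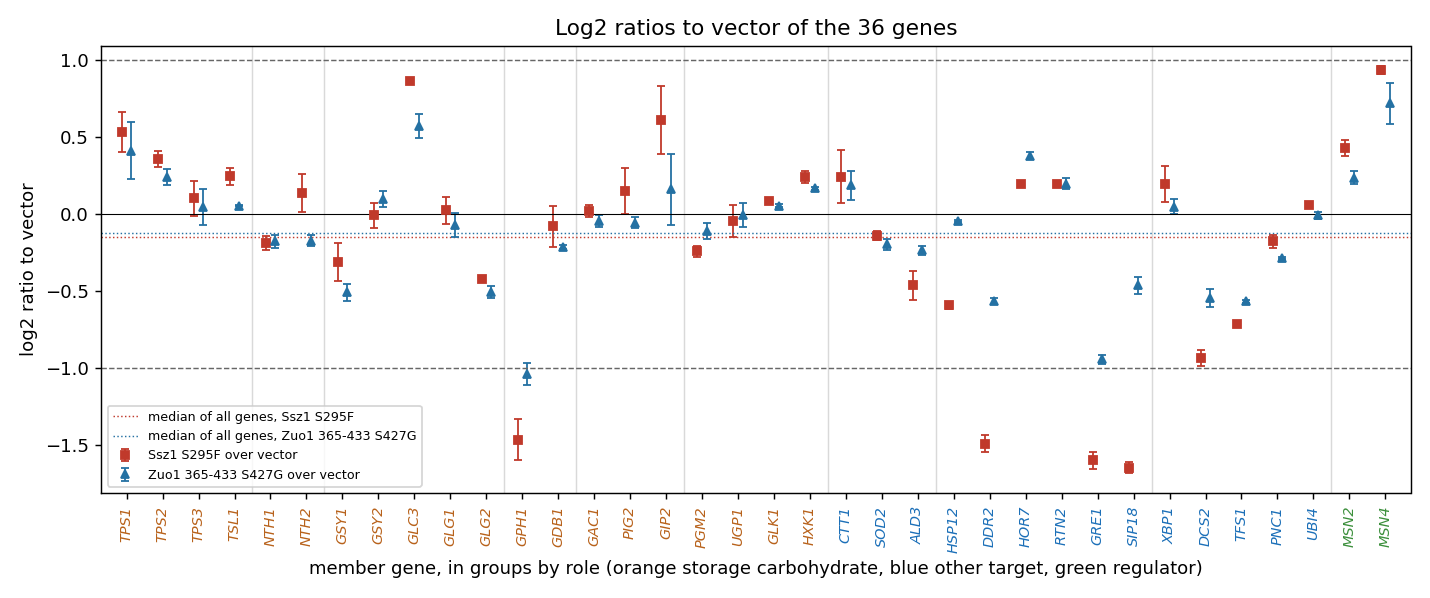
Log2 ratio to vector of each of the 36 genes with Ssz1 S295F (red squares) and with the fragment (blue triangles), with the SD over 3 blocks. Dashed lines mark 2-fold and dotted lines the median of all genes, at -0.15 and -0.12. GPH1, DDR2, GRE1 and SIP18 lie below the lower dashed line with Ssz1 S295F, and GPH1 also with the fragment.

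Among the other Msn2 and Msn4 targets, defences against oxidants and aldehydes stayed under 2-fold. CTT1, the cytosolic catalase and a classic reporter of Msn2 and Msn4 activity, read 1137 with vector, 1342 with Ssz1 S295F and 1292 on the fragment array, at 0.24 ± 0.17 and 0.18 ± 0.09. SOD2, the mitochondrial superoxide dismutase, read 9522, 8618 and 8285, at -0.14 ± 0.03 and -0.20 ± 0.03. ALD3, an aldehyde dehydrogenase, read 798.4, 577.7 and 676.9, at -0.47 ± 0.10 and -0.24 ± 0.03. These genes thus stood on both sides of vector.

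The small stress proteins held the 3 lowest ratios of the 36 genes with Ssz1 S295F, and they also spread widely among themselves. DDR2 (YOL052C-A, chromosome XV, 231569 to 231754), a gene induced by DNA damage and many other stresses, read 1411 with vector, 501.2 with Ssz1 S295F and 952.3 on the fragment array. Its ratio was -1.49 ± 0.05 with Ssz1 S295F and -0.57 ± 0.02 with the fragment, and the 3 arrays did not overlap in their blocks. HOR7 (YMR251W-A, chromosome XIII, 774751 to 774930), its paralogue, read 8666, 9883 and 11238, at 0.19 ± 0.01 and 0.37 ± 0.02. HOR7 had length-adjusted ratios of 0.78 and 0.80. The paralogues have coding lengths of 186 and 180 bp, yet the ratio of DDR2 less that of HOR7 was -1.68 ± 0.05 with Ssz1 S295F and -0.94 ± 0.03 with the fragment.

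GRE1 (YPL223C, chromosome XVI, 128631 to 129137) and SIP18 (YMR175W, chromosome XIII, 611015 to 611254) are paralogues that encode hydrophilins, very soluble proteins of osmotic stress and drying. GRE1 read 384.5 with vector, 126.6 with Ssz1 S295F and 199.5 on the fragment array, at -1.60 ± 0.05 and -0.95 ± 0.03. SIP18 read 132.2, 42.1 and 95.6, at -1.65 ± 0.03 and -0.47 ± 0.06, and the sizes are uncertain because these readings are among the lowest of each array. Both genes were lowest with Ssz1 S295F, with the fragment between that array and vector.

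HSP12, which protects membranes under stress and is among the most strongly stress-induced yeast genes, read 4220 with vector, 2794 with Ssz1 S295F and 4084 on the fragment array. It lay at -0.60 ± 0.02 with Ssz1 S295F and at -0.05 ± 0.00 with the fragment. With 330 bp it is short, and its length-adjusted ratio was -0.05 with Ssz1 S295F and 0.34 with the fragment. RTN2, a reticulon of the endoplasmic reticulum, read 1452, 1655 and 1661, at 0.19 ± 0.02 and 0.19 ± 0.04. Of the 6 small stress protein genes, 3 were lower past 2-fold with Ssz1 S295F and 0 with the fragment, against 2.77% and 0.866% of all genes. Their medians were -1.04 and -0.26, where the loess over all genes had medians of -0.56 and -0.39 at their lengths, and the length-adjusted medians were -0.47 and 0.13.

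Of the remaining effectors, DCS2, a stress-induced relative of the scavenger decapping enzyme, read 955.7 with vector, 499.1 with Ssz1 S295F and 654.1 on the fragment array, at -0.94 ± 0.05 and -0.55 ± 0.06. TFS1, an inhibitor of carboxypeptidase Y, read 3514, 2138 and 2366, at -0.72 ± 0.00 and -0.57 ± 0.01. Both lay below vector by many block SDs without reaching 2-fold. Length-adjusted ratios were -0.71 and -0.35 for DCS2, and smaller in size for the short TFS1, at -0.31 and -0.26. PNC1, the nicotinamidase of NAD+ salvage, read 6936, 6116 and 5679, at -0.18 ± 0.04 and -0.29 ± 0.01. Its length-adjusted ratios were 0.23 and 0.03. XBP1, a stress-induced transcriptional repressor, read 696.0, 795.2 and 717.5, at 0.19 ± 0.12 and 0.04 ± 0.05. UBI4, the polyubiquitin gene, read 4129, 4289 and 4094, at 0.05 ± 0.01 and -0.01 ± 0.02. Its ubiquitin repeats resemble those of the other ubiquitin genes, so its reading is uncertain.

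The factors themselves lay above vector on both construct arrays. MSN4 (YKL062W, chromosome XI, 322872 to 324764) read 489.3 with vector, 932.6 with Ssz1 S295F and 803.7 on the fragment array, at 0.93 ± 0.03 and 0.72 ± 0.13, the highest ratio of the 36 genes in each comparison with vector. MSN2 (YMR037C, chromosome XIII, 344402 to 346516) read 4750, 6380 and 5584, at 0.43 ± 0.05 and 0.23 ± 0.04. Of all genes, 331 had a higher ratio than MSN4 with Ssz1 S295F. Length-adjusted ratios were 0.83 and 0.65 for MSN4 and 0.33 and 0.17 for MSN2. With the fragment, the highest length-adjusted ratio of the 36 genes was that of HOR7, at 0.80. MSN2 and MSN4 stood above vector while 9 of the 14 other targets stood below it with Ssz1 S295F, as did 10 of 14 with the fragment. Relative to the median of all genes, 8 of the 14 stood below in each comparison. Over all genes, 3802 and 3898 of 5777 stood below vector in these comparisons. After length adjustment, 7 of the 14 other targets lay below 0 and 7 above it in each comparison.

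Set side by side, the median log2 ratio with Ssz1 S295F was 0.05 for storage carbohydrate genes and -0.32 for the other targets, a difference of 0.37 ± 0.08. With the fragment the medians were -0.03 and -0.22, a difference of 0.19 ± 0.05. Coding length moved with this difference. Storage carbohydrate genes had a median coding length of 2117 bp (1143 to 4611) and the other targets one of 681 bp (180 to 1944), and the loess over all genes had a median of 0.07 at the lengths of the first and -0.40 at those of the second with Ssz1 S295F. After length adjustment the medians were -0.01 and 0.02 with Ssz1 S295F and -0.06 and 0.0021 with the fragment. The difference between the sets was then small, at -0.04 and -0.06. Its change of sign was within or close to the block SDs of the unadjusted differences, 0.08 and 0.05. With genes split by coding length into 5 bins of like size, the one bin with at least 3 genes of both sets was that of 1464 to 2115 bp. There the median with Ssz1 S295F was 0.11 over 8 storage carbohydrate genes, 0.19 over 3 other targets and 0.11 over all genes. The other targets of that bin were CTT1 (0.24), XBP1 (0.19) and ALD3 (-0.47), and ALD3 lay below all 8 storage carbohydrate genes. The spread within each set (from -1.54 to 0.76 and from -1.13 to 0.78 after adjustment) was far larger than the distance between their medians.

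Among the 6 members in the shortest of these bins (78 to 654 bp), 3 were lower past 2-fold with Ssz1 S295F, where 9.15% of all genes of that bin were. In the bins of 1464 to 2115 bp and 2118 to 14733 bp, 0 of 13 and 0 of 10 members were higher past 2-fold with Ssz1 S295F. Of all genes in these bins, 10.8% and 7.18% were. After length adjustment GRE1 (-1.13), SIP18 (-1.07) and GPH1 (-1.54) still exceeded 1 in size with Ssz1 S295F, and DDR2 was at -0.90. With the fragment GPH1 (-1.08) did so, while DDR2 (-0.14) and SIP18 (-0.06) were near genes of their length and GRE1 was at -0.60.

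**Figure D3:**
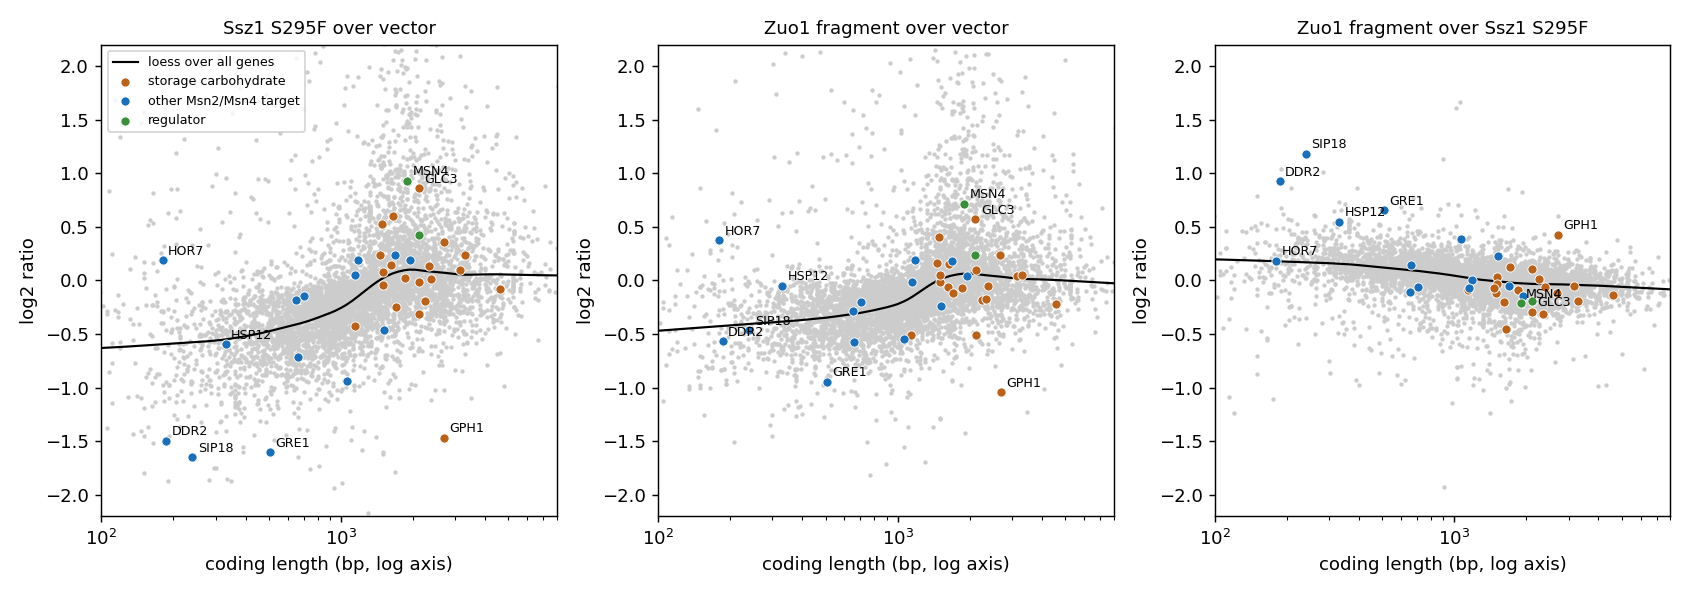
Log2 ratio against coding length (bp, log axis) for all genes (grey), the loess over all genes (black line) and the 36 genes, coloured as storage carbohydrate (orange), other target (blue) or regulator (green), for each pair of arrays. A few grey points beyond the axes are not drawn. The black line climbs with length in both comparisons with vector and declines between the construct arrays, and GPH1 lies far below it among long genes.

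Between the construct arrays, the stress genes that were lowest with Ssz1 S295F read higher with the fragment. This direction is partly set by choosing genes that are low on the Ssz1 S295F array. Past 2-fold, 1 of 36 members was higher (2.78%, against 0.138% of all genes) and 0 of 36 were lower (against 0.138% of all genes). That member was SIP18 at 1.18 ± 0.06, whose low readings leave the size uncertain. DDR2 followed at 0.93 ± 0.05, with 8 genes of the whole array above it, then GRE1 at 0.66 ± 0.04, HSP12 at 0.55 ± 0.02, GPH1 at 0.43 ± 0.18 and DCS2 at 0.39 ± 0.05. At the other end stood GIP2 (-0.45 ± 0.04), NTH2 (-0.31 ± 0.13) and GLC3 (-0.29 ± 0.09). Storage carbohydrate genes had a median of -0.09 and other targets 0.17, against 0.03 over all genes. The difference of the medians, -0.26 ± 0.01, was -0.10 after length adjustment. Length-adjusted ratios were 1.01 for SIP18, 0.75 for DDR2, 0.54 for GRE1 and 0.39 for HSP12. TFS1, at -0.72 with Ssz1 S295F over vector, lay at only 0.15 ± 0.01 between the constructs, and at 0.05 after adjustment. DDR2 and its paralogue HOR7 differed here too, at 0.93 and 0.19, by 0.74 ± 0.05. This comparison uses no vector reading, and it is fixed by the ratios to vector given above.

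**Figure D4:**
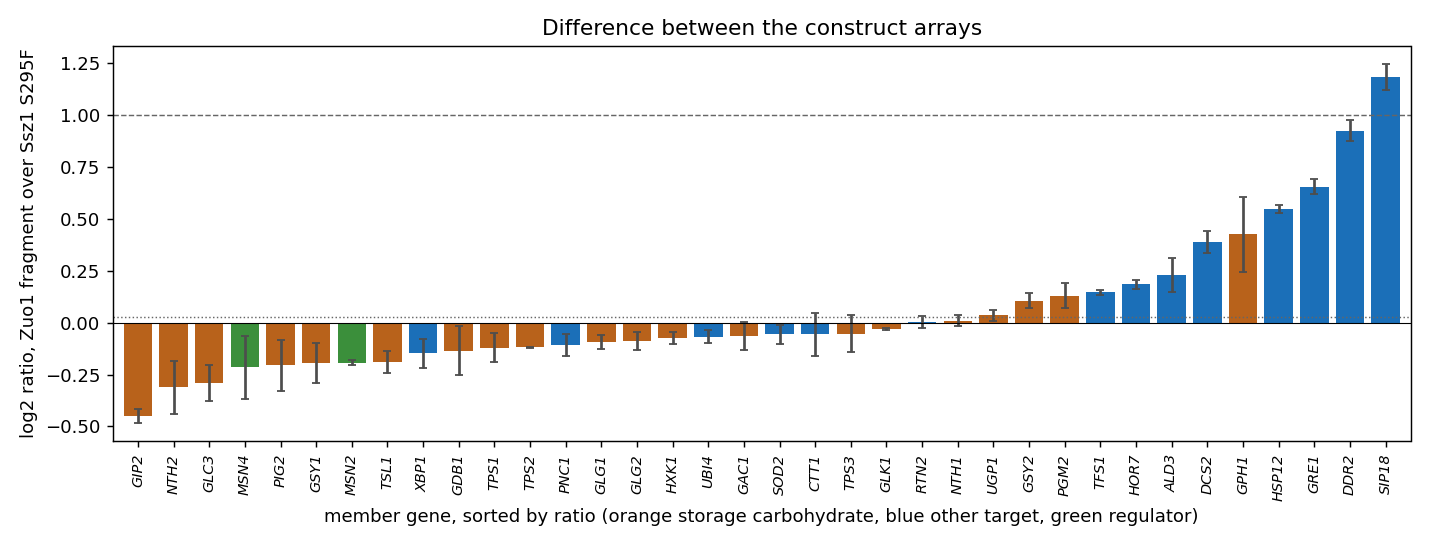
Log2 ratio of the Zuo1 fragment array over the Ssz1 S295F array for each of the 36 genes, sorted, with the SD over 3 blocks (orange storage carbohydrate, blue other target, green regulator). The dashed line marks 2-fold and the dotted line the median of all genes, at 0.03. SIP18, DDR2, GRE1 and HSP12 form the upper end, and GIP2, at -0.45, the lower end.

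Further lists from textbook knowledge placed these genes in their pathways. Of 13 further genes of trehalose and glycogen metabolism, among them GLC7, PGM1, HXK2, the acid trehalase ATH1 and the Pho85 cyclins PCL8 and PCL10, 0 passed 2-fold in either comparison, with medians of -0.10 and -0.15. Of all genes 5.02% were higher and 2.77% lower with Ssz1 S295F, and 3.64% and 0.866% with the fragment. The largest ratios with Ssz1 S295F were those of PCL8, a cyclin that directs Pho85 to glycogen synthase (0.45 ± 0.07), and PCL6 (0.41 ± 0.06). With the fragment the largest was that of SGA1, a glucoamylase of sporulating cells, at -0.49 ± 0.03. Its reading there lay at percentile 5.02 of the fragment array, so the size is uncertain.

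Of 28 further Msn2 and Msn4 targets, 2 stood above and 2 below vector past 2-fold with Ssz1 S295F, and 2 above and 0 below with the fragment. These counts are 7.14% above and 7.14% below with Ssz1 S295F, against 5.02% and 2.77% of all genes, and 7.14% above with the fragment, against 3.64%. The medians were -0.22 and -0.21, against -0.15 and -0.12 over all genes. After length adjustment the medians of these targets were -0.02 and 0.01. The vacuolar protease gene PRB1 read 2599 with vector, 7217 with Ssz1 S295F and 6484 on the fragment array (1.47 ± 0.05 and 1.32 ± 0.04). MSC1 read 226.8, 682.3 and 748.5 (1.59 ± 0.02 and 1.72 ± 0.02). Its vector reading lay at percentile 5.18 of that array, just above the low-reading limit, so the sizes are uncertain. SSA4, a stress-induced Hsp70, read 1199, 595.7 and 757.5 (-1.01 ± 0.03 and -0.66 ± 0.07), and GPX1, a glutathione peroxidase, lay at -1.03 ± 0.02 and -0.97 ± 0.00, with construct readings below the 5th percentile of their arrays.

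Of 24 genes in the signalling network around Msn2 and Msn4, 1 was higher past 2-fold with Ssz1 S295F and 0 with the fragment. In either comparison 0 were lower, and the medians were -0.04 and -0.05. The share higher with Ssz1 S295F, 4.17%, was near the 5.02% of all genes. The gene past 2-fold was GIS1, a zinc-finger factor of the diauxic shift that acts downstream of the kinase Rim15, which read 1534 with vector, 3196 with Ssz1 S295F and 2511 on the fragment array (1.06 ± 0.06 and 0.71 ± 0.10). TPK2, a catalytic subunit of protein kinase A, lay at 0.74 ± 0.11 and 0.49 ± 0.20, while TPK3, which encodes another catalytic subunit, lay at -0.33 ± 0.03 and -0.30 ± 0.02. The inhibitory subunit gene BCY1 was at -0.01 ± 0.04 and -0.07 ± 0.04.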

How the data were processed

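The authors deposited 1 linear intensity per gene and block, made with RMA per the submitters' processing notes. The software, its version and the normalization across arrays are not stated. Per the file headers, an array has 3 blocks, and 35 of the 36 members had 8 probes and 1 had 7. Log2 of these intensities was averaged over blocks, with no floor, pseudocount or further normalization, and ratios are differences of these means. Length adjustment subtracted a loess of the ratio on log2 coding length (span 0.3, statsmodels 0.14.6, Python 3.11.15). The steps were tested on simulated data. Names came from RefSeq's gene table by locus tag (5771 of 5777 genes), and PGM3 through its current symbol PRM15. Coordinates are those of the array's gene models of 2008. The members, lists and alternatives were chosen with earlier results of these data known. Every member could be named. In the further lists, genes past 2-fold were named, or else up to 3 with the largest ratios. TPK2, TPK3, BCY1 and the example genes of the first further list fall outside that rule and were chosen after their values were seen. No promoter or protein sequence was used here, so the planned motif search was not run. The alternatives were the series-wide value table, centring, quantile normalization, loess on level or on coding length, filters on low genes, and thresholds of 1.5-fold and 3-fold. Precision is limited by the number of arrays, 1 per group.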

Additional observations from a re-analysis of the deposited data

How the results depend on the processing

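No paired analysis was possible because each group has 1 array and the results come from no test. Every alternative named above was run, and the filter on readings below the 5th percentile was chosen after seeing the data. The series-wide table left all 15 results within their limits. Below, values are medians (log2) of storage carbohydrate and then other target genes, their difference, or counts of members past 2-fold. Centred on the median of all genes, medians were 0.20 and -0.17 with Ssz1 S295F, 0.094 and -0.096 with the fragment, and -0.12 and 0.14 between the constructs, with 2 members higher with Ssz1 S295F and 0 lower with the fragment. Quantile normalization gave 0.18 and -0.23, then 0.086 and -0.15, then -0.11 with a difference of -0.27, with 1 member higher with Ssz1 S295F and 0 lower with the fragment. Loess on mean level gave 0.29 and -0.11 with 3 members higher, then 0.15 and 0.042 (sign turned) with a difference of 0.11, 1 higher and 0 lower, then -0.13 and 0.15 with a difference of -0.28. Loess on coding length turned the sign with Ssz1 S295F to -0.013 and 0.023 (difference -0.036). With the fragment it turned the sign to 0.0021 for other targets (difference -0.058). These turned values were small, within or close to the SD over blocks. Between the constructs this loess gave -0.074, 0.028 and -0.10. Without the lowest 25% of genes, 13 storage carbohydrate and 7 other target genes were kept, with 0.080, -0.14 and 0.22 and 0 lower with Ssz1 S295F, 0.051, -0.047 and 0.098 and 0 lower with the fragment, and -0.074, 0.0047 and -0.079 and 0 higher between the constructs. Without genes that had a reading below the 5th percentile, other targets and the difference were at -0.16 and 0.21 with 2 lower, at -0.12 and 0.094, and at 0.075 and -0.17 with 0 higher, in the same order of comparisons. At 1.5-fold, 3 members were higher and 7 lower with Ssz1 S295F, 1 and 2 with the fragment, and 3 were higher between the constructs. At 3-fold, 2 were lower with Ssz1 S295F, 0 with the fragment, and 0 were higher between the constructs. The cause of these shifts was not tested, other than that fewer genes enter after a filter. The lower ratios of GPH1, GRE1 and SIP18 with Ssz1 S295F were past 2-fold under centring, quantile normalization and both loess settings, and that of DDR2 under these except the loess on coding length. Signal over background was not measured here, and the low readings of SIP18 and GRE1 leave the sizes of their ratios uncertain.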
